A study of Mus musculus with 6 samples.

Results

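Small RNA pathway genes encode the proteins that make and hold short guide RNAs, and 8 of them were followed here through the polysomal and non-polysomal fractions of oocytes from aged mice: *Drosha*, *Dgcr8*, *Dicer1*, *Tarbp2*, *Prkra*, *Piwil2*, *Mov10l1* and *Tdrd1*. They were picked by symbol, with earlier results of these data known, and all 8 were found among the 25899 genes of the table. Each symbol occurred in 1 row. The study set polysome-bound maternal mRNAs of oocytes from aged females (AF) against those from young females, and of these the AF libraries are described here. Fully grown oocytes of CD1 mice aged 58 weeks (the study's methods name the strain ICR and give a lower age, in months) were collected after 5 IU of pregnant mare serum gonadotropin, released from IBMX, cultured for 180 min until nuclear envelope breakdown (NEBD) and held for 10 min in 0.1 mg/ml cycloheximide, which keeps ribosomes on mRNA. Lysates of 200 oocytes were run through sucrose gradients, and gradient fractions were combined into a non-polysomal pool (AF NP, free RNA and monosomes) and a polysomal pool (AF P), with 3 libraries of each. All libraries came from aged females, and P and NP are parts of the same kind of gradient. Oocytes of young females were not analysed here, and how many mice gave each lysate is not given in the sources used here.

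As background, microRNAs are cut out of long primary transcripts in the nucleus by the Microprocessor, made of the RNase III enzyme Drosha and its double-stranded RNA-binding partner Dgcr8. In the cytoplasm a second RNase III enzyme, Dicer, cuts the exported hairpins and also long double-stranded RNA, with Tarbp2 (TRBP) or its paralogue Prkra (PACT) bound to it. PIWI proteins such as Piwil2 (MILI) carry a separate class, piRNAs, whose precursors need the helicase Mov10l1 and whose assembly in germ granules involves Tudor proteins such as Tdrd1. Mouse oocytes are known for weak microRNA activity, for abundant endogenous siRNAs made by Dicer, and for piRNAs that are dispensable for female fertility in mice. An oocyte form of Dicer starts within an intron of the gene, and values summed over a gene cannot separate it from the somatic form.

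The gene *Dgcr8* itself holds 2 annotated microRNA hairpins, which shows the kind of substrate that the protein works on. Both lie on the minus strand of chromosome 16 in exon 2 of the same *Dgcr8* transcript. The hairpin of miR-1306 (18284239 to 18284317, GRCm38.p6) is within the coding sequence and that of miR-3618 (18284550 to 18284637) within the untranslated part of the exon. No hairpin of the RefSeq table used lay within another of the 8 genes. The mature sequences from RefSeq are given 5′ to 3′ with the seed, bases 2 to 8, in capitals.
mmu-miR-1306-5p: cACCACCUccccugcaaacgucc
mmu-miR-1306-3p: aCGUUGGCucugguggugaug
mmu-miR-3618-5p: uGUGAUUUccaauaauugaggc
mmu-miR-3618-3p: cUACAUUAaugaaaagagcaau
The 4 seeds differ from each other. The libraries measured *Dgcr8* mRNA, and the processed microRNAs were not measured.

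Values are FPKM, fragments per kilobase of exon scaled to the mapped reads of the library. Being per length, they were used to set levels of different genes side by side. Such comparisons are approximate, as the RNA was amplified and values are summed over all forms of a gene. The depth of a library, estimated from the steps between its low values, was 1237468 to 18077494 reads in AF NP and 163567 to 1547542 reads in AF P, a 111-fold span. Sums over all genes were 597261 to 633110 FPKM in NP and 246182 to 393876 FPKM in P. Oocyte markers were present, with 11 of 12 listed above 0 in every library and summed levels of 12405 to 15344 FPKM in NP and 5208 to 15131 FPKM in P. Of 10 granulosa cell markers 6 were at 0 in all libraries, among them *Fshr*, *Foxl2* and *Amh*. The others, *Cyp19a1*, *Inha*, *Nr5a2* and *Kitl*, carried the sums of 11.2 to 131 FPKM in NP and 1.18 to 16.5 FPKM in P. Of 9 theca and stroma markers 5 were at 0 throughout, including *Cyp17a1* and *Col1a1*. The others, *Cyp11a1*, *Star*, *Lhcgr* and *Pdgfra*, carried the sums of 0 to 9.79 FPKM in NP and 0 to 0.364 FPKM in P. The 5 matched of 7 blood markers were all at 0, *Ptprc* and *Alas2* among them. The part of these levels in the results was not tested.

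The 8 mRNAs spanned a wide range of levels, from about 1 to about 155 FPKM in NP. In NP, *Tarbp2* had the highest mean, followed by *Tdrd1*, *Dicer1*, *Drosha*, *Piwil2*, *Dgcr8*, *Prkra* and *Mov10l1*. In P the order was *Tdrd1*, *Dicer1*, *Tarbp2*, *Drosha*, *Dgcr8* and *Piwil2*, with *Prkra* and *Mov10l1* listed at 0. Within each order, the library values of every pair of neighbours overlapped. *Tarbp2* was the highest of the 8 in each of the 3 NP libraries, and *Tdrd1* was the highest in each of the 3 P libraries. In NP replicates 1 and 2 the margin of *Tarbp2* over *Tdrd1* was narrow, at 121 against 119 and 184 against 183 FPKM. All 8 were above 0 in NP replicates 1 and 2, against 5 in NP replicate 3 and 6, 5 and 5 in P replicates 1, 2 and 3. Only *Drosha*, *Dicer1*, *Tarbp2* and *Tdrd1* were above 0 in all 6 libraries.

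**Figure D1:**
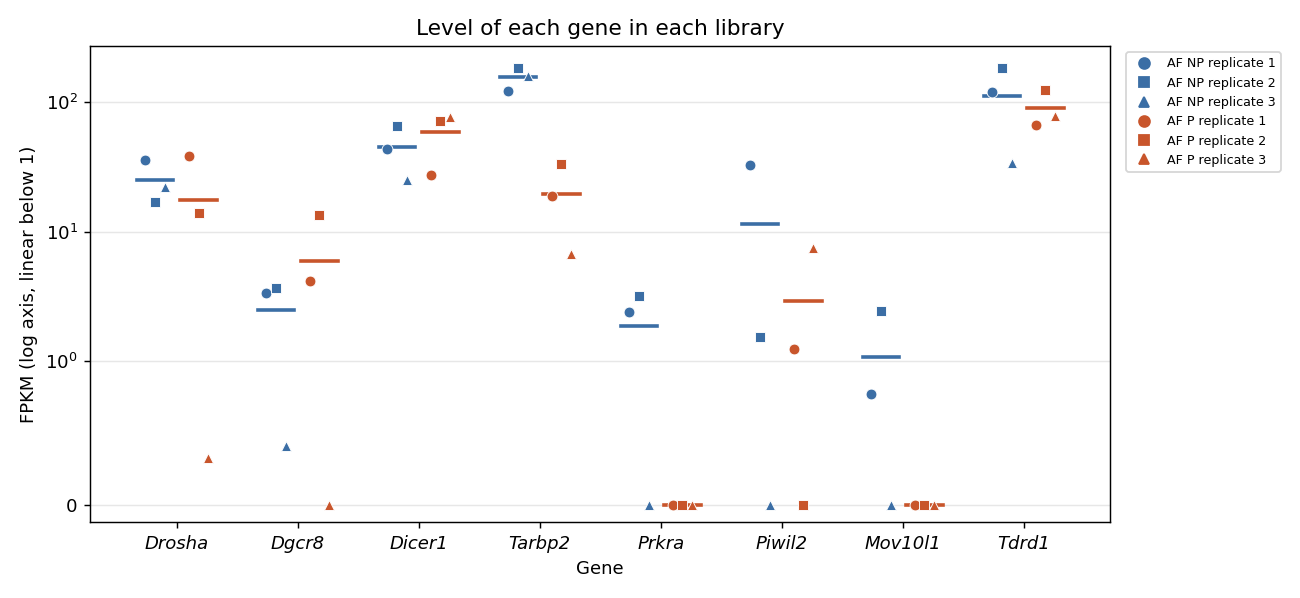
FPKM of each of the 8 genes in each library, on a log axis that is linear below 1; blue marks are AF NP and orange marks AF P, marker shapes are replicates, and bars are means of 3 libraries. *Tarbp2* is the gene whose P libraries, at 6.67 to 33.3 FPKM, all lie below its NP libraries, at 121 to 184 FPKM.

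To ask whether any of the mRNAs was distributed differently between the fractions, P was compared with NP by limma on log2(FPKM + 1) over the 10578 genes with a mean above 1 FPKM in either fraction, which included all 8. *Prkra* and *Mov10l1* passed this filter through NP alone. On the deposited FPKM most genes were lower in P, where the sums over all genes were also lower. Of those tested, 80.1% had a log2 ratio below 0, and their median was -1.03. This shift depended on the scaling: the median was -0.37 by median-of-ratios, 0.0027 by quantile and -0.43 by common-sum scaling. The shares of all genes given below are on the deposited scale. The distance of a ratio from the median of -1.03 is given where it helps. In such pools, fewer oocytes carrying an mRNA on polysomes and less of it per oocyte cannot be told apart. None of the 8 passed the threshold of an adjusted p of 0.1 (0 of 8, limma with Benjamini-Hochberg adjustment over all genes), where 1.82% of the genes tested passed it. At an unadjusted p under 0.05 the count was 1 of 8, *Tarbp2*, where 15.8% of all genes tested were below that p, so the count is near the background. For the 6 genes above 0 in both fractions the log2 ratios ran from -3.15 to 0.47 with standard errors of 0.86 to 1.35, and since even the ratio of -3.15 missed the threshold, differences of several log2 units could go uncalled here. Only *Tarbp2* had every P library below every NP library (1 of 8), a pattern found in 23.2% of all genes tested. None had every P library above every NP library, against 0.633% of all genes tested.

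**Figure D2:**
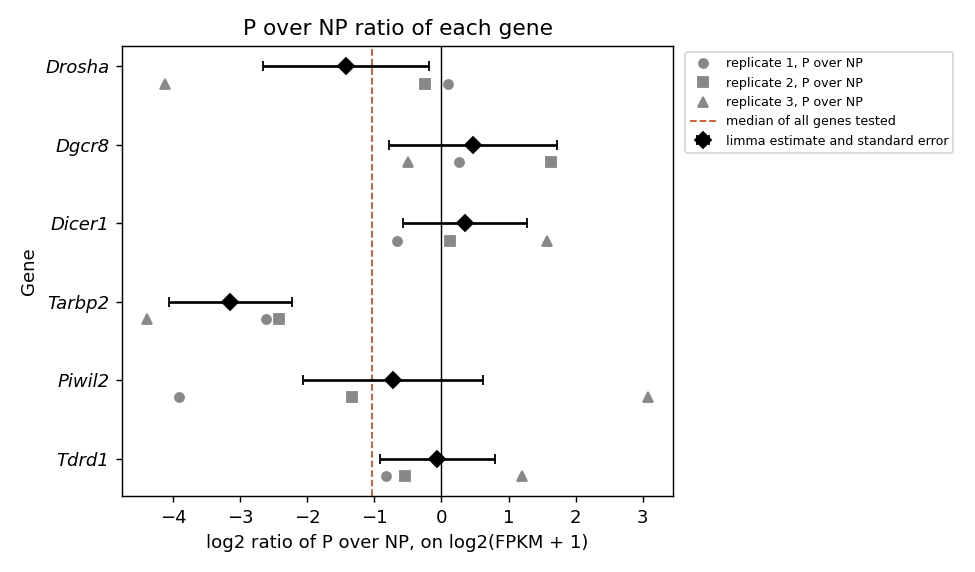
Log2 ratio of P over NP on log2(FPKM + 1) for the 6 genes listed above 0 in both fractions; diamonds with bars are the limma estimate and its standard error, grey marks are the ratios of libraries with the same replicate number, and the dashed line is the median of all genes tested (-1.03). The *Tarbp2* estimate of -3.15 lies farthest left, while those of *Dicer1*, *Dgcr8*, *Tdrd1* and *Piwil2* lie right of the dashed line, with bars of 0.86 to 1.35 log2 units.

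Of the nuclear pair, *Drosha* was well above *Dgcr8* in most libraries. *Drosha* lies on the plus strand of chromosome 15 (12824815 to 12935290, GRCm38, as for all positions given). NP replicates 1, 2 and 3 held 35.7, 16.8 and 22.2 FPKM of it, averaging 24.9 ± 9.72 (SD, n = 3), and the P replicates 38.1, 14.0 and 0.326 FPKM, averaging 17.5 ± 19.1 (SD, n = 3). The fractions thus overlapped, with replicates 1 and 2 at like levels in P and NP and only P replicate 3 low, where the value rests on an estimated 3.00 reads. Limma put the log2 ratio of *Drosha* at -1.43 with a standard error of 1.24 (adjusted p = 0.534), while without P replicate 3 it was -0.031, with a P mean of 26.0 FPKM. Without P replicate 1 it was -2.47, with a P mean of 7.18 FPKM.

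*Dgcr8*, on the minus strand of chromosome 16 (18253948 to 18289249), was scarcer. The NP replicates held 3.33, 3.66 and 0.407 FPKM, averaging 2.47 ± 1.79 (SD, n = 3), whereas P replicate 1 held 4.19 FPKM, P replicate 2 held 13.5 FPKM and P replicate 3 was at 0, below a limit of 0.252 FPKM for 3 reads. The highest P value exceeded every NP value, while the lowest P value was below all of them. Its fitted log2 ratio was 0.47 with a standard error of 1.25 (limma adjusted p = 0.861), and without P replicate 2 it became -0.42. In P replicate 1 the value rests on about 5.27 reads. The 3′ end of *Dgcr8* overlaps the oppositely oriented *Trmt2a* by 825 bases, and since no source used here gives the strand setting, reads there cannot be assigned. *Trmt2a*, a tRNA methyltransferase gene, was at 7.46 to 41.9 FPKM in NP and 0.912 to 12.3 FPKM in P.

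The level of *Drosha* was 10.7, 4.58 and 54.6 times that of *Dgcr8* in NP replicates 1, 2 and 3, and 9.09 and 1.04 times in P replicates 1 and 2. Such a ratio within a library is free of the scaling between libraries. Its range was wide in both fractions and the 2 ranges overlapped.

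Among the genes of the dicing step, *Dicer1* had overlapping levels in both fractions, *Tarbp2* had lower values in every P library but missed the threshold, and *Prkra* was scarce. *Dicer1*, on the minus strand of chromosome 12 (104687742 to 104751952), measured 43.7, 65.2 and 25.2 FPKM in the NP replicates, averaging 44.7 ± 20.0 (SD, n = 3). The P replicates held 27.3, 71.5 and 77.2 FPKM, averaging 58.6 ± 27.3 (SD, n = 3). The ranges overlapped, with the top values of the 6 libraries in P replicates 2 and 3. The fitted log2 ratio of 0.35 had a standard error of 0.93 (limma adjusted p = 0.860) and lay 1.38 above the median of all genes. It ranked 2279th of 25899 genes by mean in NP and 1038th in P. The value of lowest depth, in P replicate 1, still rests on an estimated 74.7 reads.

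*Tarbp2*, on the plus strand of chromosome 15 (102518192 to 102523676), measured 121, 184 and 160 FPKM in the NP replicates, averaging 155 ± 31.9 (SD, n = 3). The P replicates held 18.8, 33.3 and 6.67 FPKM, averaging 19.6 ± 13.3 (SD, n = 3). All P values lay below all NP values, and the value was lower in P in 3 of 3 replicate pairs. Its fitted log2 ratio was -3.15 with a standard error of 0.92, and -2.12 once the median of all genes was subtracted. The adjusted p of 0.113 (limma) missed the threshold. When limma was fitted with a replicate block, the adjusted p fell to 0.0561 and *Tarbp2* was called lower in P, as were 6.27% of the genes in that fit. When only genes with a mean above 5 FPKM were tested, it was 0.0981, and 2.81% of genes were called lower. Over all alternatives the log2 ratio stayed between -3.64 and -1.99 and the adjusted p from limma ranged from 0.0561 to 0.650. Rescaling the libraries took the *Tarbp2* ratio to -2.19 (median-of-ratios), -1.99 (quantile) and -2.24 (common FPKM sum). The adjusted p from limma was then 0.614, 0.650 and 0.641. Without NP replicate 1 it was 0.395, and without NP replicate 2 it was 0.448. The P values rest on about 14.0, 173 and 46.9 reads, against 680 to 15123 reads in NP. By mean level *Tarbp2* ranked 785th of 25899 genes in NP and 2506th in P.

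Set against *Dicer1* in the same library, *Tarbp2* mRNA was at 2.76, 2.82 and 6.37 times its level in NP replicates 1, 2 and 3. In P the same ratio was 0.689, 0.466 and 0.0864. The partner exceeded the enzyme in every NP library and was below it in every P library. This pair was picked after the values were seen, so no test was applied to the ratio.

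**Figure D3:**
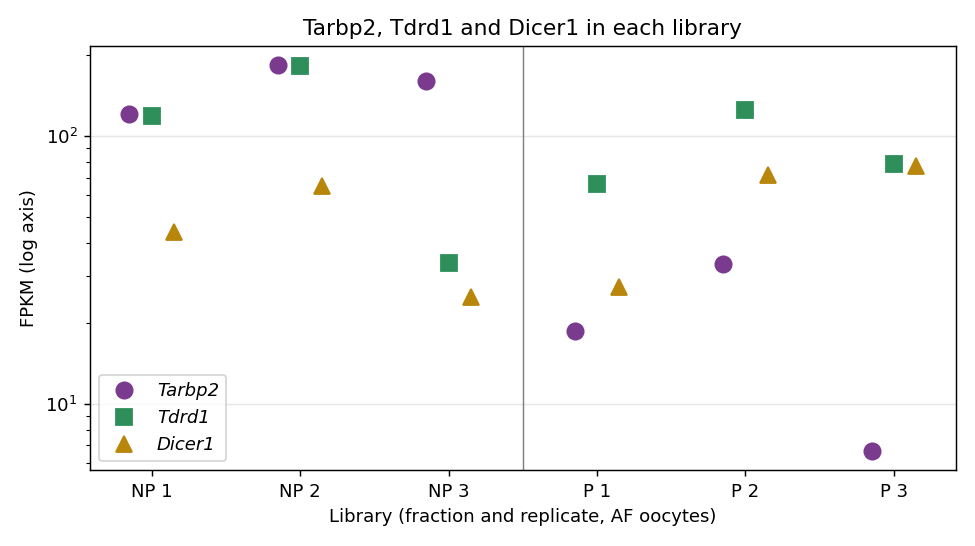
FPKM (log axis) of *Tarbp2*, *Tdrd1* and *Dicer1*, the members with the highest mean over the 6 libraries, in each NP and P library. *Tarbp2* is the highest of these in each NP library, narrowly so over *Tdrd1* in replicates 1 and 2, and the lowest in each P library. *Tdrd1* lies above *Dicer1* in all 6, by 1.02 to 2.80 times.

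*Prkra*, on the minus strand of chromosome 2 (76629898 to 76648015), encodes a protein that besides Dicer binds the kinase Pkr. It measured 2.39 FPKM in NP replicate 1, 3.16 FPKM in NP replicate 2 and 0 in all other libraries. The NP value of replicate 2 rests on about 116 reads and that of replicate 1 on fewer than 10. At the estimated depth, 3 reads would be worth 9.04, 1.30 and 0.956 FPKM in P replicates 1, 2 and 3 and 0.122 FPKM in NP replicate 3. A level like that of NP replicates 1 and 2 would thus be worth fewer than 3 reads in P replicate 1, so the 0 there says little. The values at 0 in the other 2 P libraries and in NP replicate 3 lie below that level. As the gene passed the filter through NP alone and its ratio is set by the pseudocount, no ratio or p is given. In the NP libraries where both were listed, *Tarbp2* was at 50.5 and 58.2 times the level of its paralogue *Prkra*.

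The genes of the piRNA branch ranged from among the highest to the lowest of the 8. *Tdrd1*, on the plus strand of chromosome 19 (56826209 to 56870012), measured 119, 183 and 33.6 FPKM in the NP replicates, averaging 112 ± 74.8 (SD, n = 3). The P replicates held 66.2, 125 and 78.4 FPKM, averaging 89.8 ± 31.0 (SD, n = 3). The P values fell within the NP range. The fitted log2 ratio of -0.060 had a standard error of 0.86 (limma adjusted p = 0.977) and lay 0.97 above the median of all genes. Its sign changed with the scaling, to 0.93 under median-of-ratios rescaling. *Tdrd1* ranked 665th of 25899 genes by mean in P and 1070th in NP. Every *Tdrd1* value rests on at least 58.9 reads.

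*Piwil2*, on the minus strand of chromosome 14 (70372480 to 70429094), measured 32.9 FPKM in NP replicate 1, 1.53 FPKM in NP replicate 2 and 0 in NP replicate 3. Of the P libraries, replicate 1 held 1.24 FPKM and replicate 3 held 7.49 FPKM, and replicate 2 was at 0. A single library held 95.6% of the summed NP FPKM and 85.8% of the summed P FPKM, so neither fraction has a typical value. The fitted log2 ratio was -0.72 with a standard error of 1.35 (limma adjusted p = 0.791), and it became 0.75 without NP replicate 1, where the NP mean fell from 11.5 to 0.765 FPKM. The lowest value above 0, in P replicate 1, corresponds to about 1.07 reads. The 0 in NP replicate 3 lies below a limit of 0.0468 FPKM and that in P replicate 2 below 0.498 FPKM, taking 3 reads as the limit.

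*Mov10l1*, on the plus strand of chromosome 15 (88982909 to 89055152), measured 0.773 FPKM in NP replicate 1, 2.43 FPKM in NP replicate 2 and 0 in the other 4 libraries. The NP values rest on about 4.00 and 184 reads. At the depth of P replicates 1, 2 and 3, 3 reads would be worth 4.38, 0.629 and 0.463 FPKM. Either NP level would thus be worth fewer than 3 reads in P replicate 1, so the 0 there says little. No ratio or p is given, for the same reason as for *Prkra*. *Prkra* and *Mov10l1* thus shared one pattern, above 0 in the same 2 NP libraries and at 0 elsewhere.

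**Figure D4:**
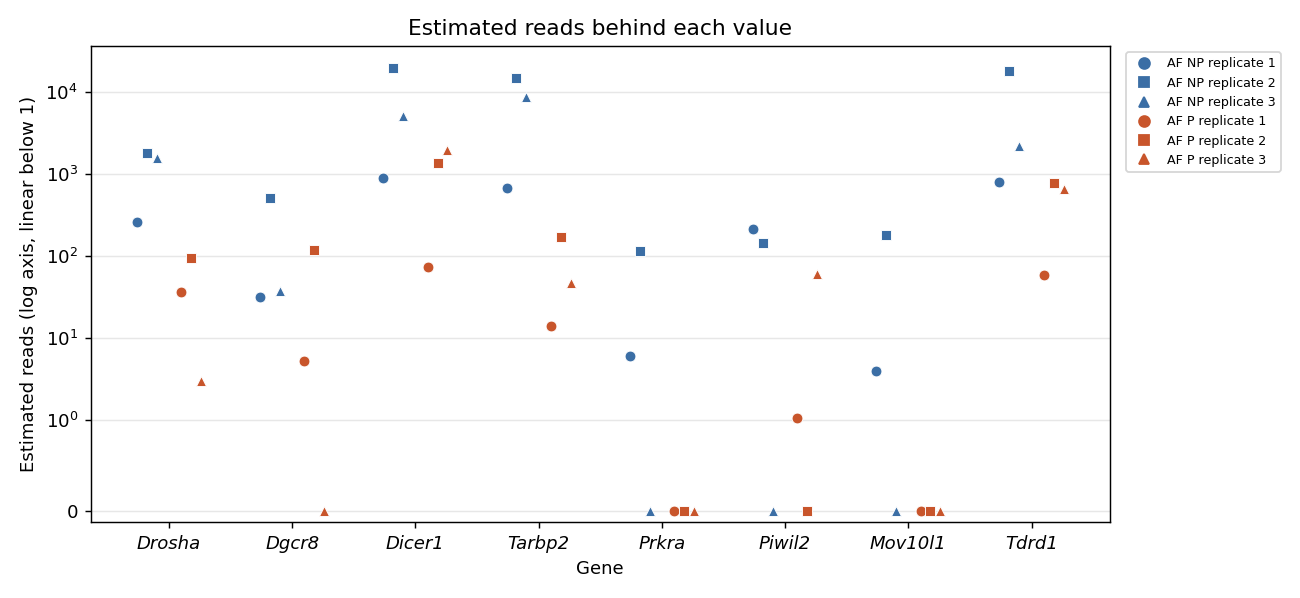
Estimated reads behind each value of the 8 genes, from FPKM, exon length and estimated depth, on a log axis that is linear below 1; colours and shapes are fractions and replicates. Values of *Dicer1* and *Tdrd1* rest on more than 50 reads in all libraries, while *Dgcr8*, *Prkra*, *Piwil2* and *Mov10l1* have values at 0 and values from fewer than 10 reads, and *Drosha* has 1 value from about 3.00 reads.

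The nearest genes to *Tdrd1*, the member with the highest mean, by Pearson correlation of log2(FPKM + 1) over the 6 libraries were *Git2* (0.994), *Cand1* (0.990) and *AI848100* (0.985). *Cand1*, a regulator of cullin ubiquitin ligases, measured 70.8, 165 and 8.22 FPKM in the NP libraries and 25.6, 110 and 31.0 FPKM in the P libraries. Of the other 10577 genes tested, 117 correlated with *Tdrd1* above 0.9, and all share the same 6 libraries and their depths.

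The rest of the pathway was read from 2 lists. For the microRNA and siRNA branch, 22 further genes (export, Argonautes, silencing complex, tailing, turnover and editing) were all matched, the 4 Argonautes under their older names *Eif2c1* to *Eif2c4*. Of these, 19 were tested, and 0 passed the threshold in either direction (limma), with 0 at an unadjusted p under 0.05, against 15.8% of all genes tested. Their median log2 ratio was -0.037, against -1.03 over all genes tested. *Mov10* and *Lin28b* passed the filter through P alone, which favours a high ratio, so the median is a description of the genes tested and not of the list. None of the 19 had every P library below every NP library, against 23.2% of all genes tested, and 1 had every P library above, against 0.633%. The latter was the transport GTPase gene *Ran*, whose highest NP value of 46.08 FPKM lay just under its lowest P value of 46.14 FPKM. *Adar*, which encodes the double-stranded RNA adenosine deaminase, had the highest mean, 131 ± 43.7 FPKM in NP and 73.7 ± 37.6 FPKM in P (SD, n = 3). *Ran* was at 35.3 ± 18.4 and 53.6 ± 7.67 FPKM and *Snd1*, a Tudor nuclease gene, at 33.4 ± 2.25 and 52.3 ± 44.2 FPKM (SD, n = 3). *Zcchc11*, which encodes the uridylyltransferase Tut4, was listed at 0 in all 6 libraries. The Argonaute genes were named as a family after their values were seen. *Eif2c2*, the slicing Argonaute, measured 15.5, 16.6 and 0.993 FPKM in the NP libraries and 3.90, 5.28 and 0.177 FPKM in the P libraries. *Eif2c1* reached 15.0 FPKM in NP replicate 3 and *Eif2c3* 9.99 FPKM in P replicate 2, and *Eif2c4* was above 0 in 1 library only.

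For the piRNA branch, 20 further genes were matched (*Henmt1* as *4921515J06Rik*) and 17 tested. Of these, 2 passed the threshold, both lower in P, where 1.8% of all genes tested were called lower. *Mael* (Maelstrom) measured 223, 332 and 854 FPKM in the NP libraries and 71.1, 30.6 and 13.8 FPKM in the P libraries, with no overlap. Its fitted log2 ratio was -3.63 with a standard error of 0.85 (limma adjusted p = 0.0496), and it was lower in P in 3 of 3 pairs. *Gtsf1*, which encodes a zinc finger partner of PIWI proteins, measured 536, 1289 and 1007 FPKM in the NP libraries and 65.9, 164 and 290 FPKM in the P libraries, also without overlap. Its fitted log2 ratio was -2.59 with a standard error of 0.68 (limma adjusted p = 0.0736), again lower in 3 of 3 pairs. Both calls were lost under each of the 3 rescalings of the libraries, with no filter, with no trend and without NP replicate 1, 2 or 3. The number of pathway genes that passed was 1 without P replicate 1, 1 without P replicate 2 and 3 without P replicate 3. With the genes tested held fixed, none passed without any one library. The median log2 ratio of the 17 was -1.15, close to that of all genes. *Prmt5* passed the filter through NP alone, which favours a low ratio, so this median too describes only the genes tested. Every P library lay below every NP library in 4 of the 17, near the 23.2% of all genes tested, and 4 were at an unadjusted p under 0.05, against 15.8%. *Tdrd12*, a further Tudor gene, had a high but uneven level, at 200, 1009 and 17.9 FPKM in NP and 162, 309 and 5.98 FPKM in P.

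**Figure D5:**
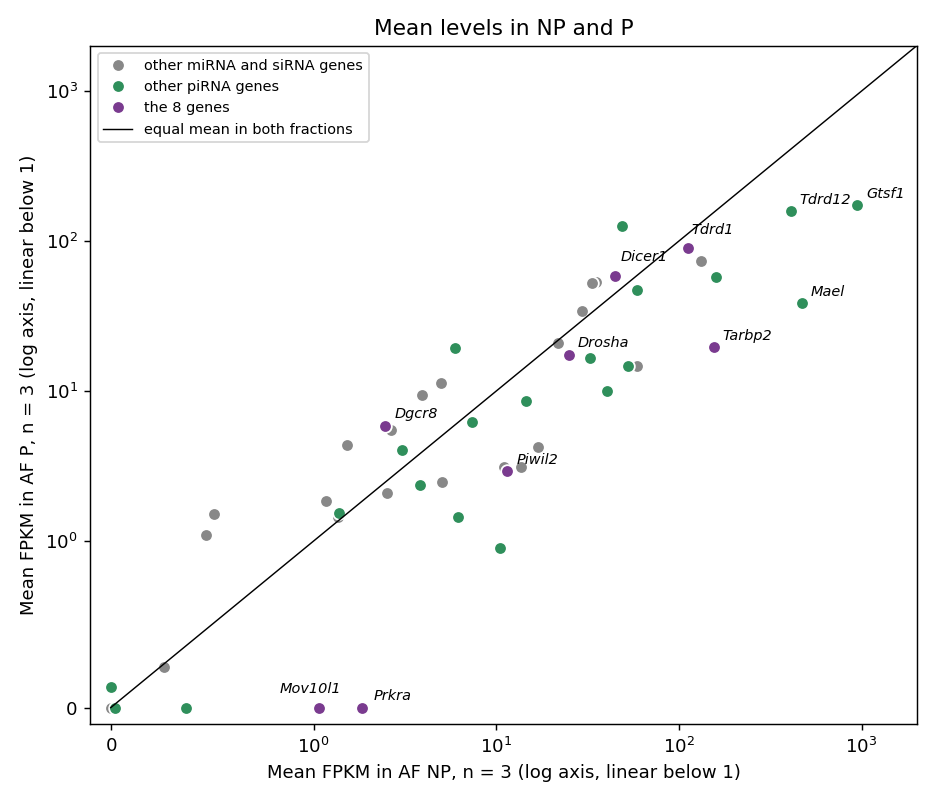
Mean FPKM in AF P against mean FPKM in AF NP (n = 3 each, log axes that are linear below 1) for the 8 genes (purple), the 22 other microRNA and siRNA genes (grey) and the 20 other piRNA genes (green); the line marks equal means. *Tarbp2*, *Mael* and *Gtsf1* lie well below the line, whereas *Dicer1* and *Tdrd1* lie near it.

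Relatives of the piRNA members are set beside them here. *Tdrd6* was at 0 in 5 of the 6 libraries, in contrast to *Tdrd1* and *Tdrd12*. *Piwil1* (MIWI) was listed above 0 in all 6 libraries, at 24.4, 14.0 and 5.37 FPKM in NP and 7.74, 17.1 and 0.818 FPKM in P, while *Piwil2* was above 0 in 4 and *Piwil4* in 1. *Mov10*, the somatic paralogue of *Mov10l1*, was likewise low, at 0.509 ± 0.722 FPKM in NP and 1.52 ± 2.63 FPKM in P (SD, n = 3). These family members were named after their values had been seen, and no difference between them was tested.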

How the data were processed

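Ribosomal RNA was depleted and the remaining RNA of 6 gradient pools amplified as a whole transcriptome before sequencing. Per the submitters' notes and the study's methods, the authors used Trim Galore 0.4.1, HISAT2 2.0.5 (GRCm38) and SeqMonk 1.40.0, and the deposited values are FPKM per gene. Annotation release and strand setting: not given in the sources used here. As FPKM is scaled to mapped reads, reads outside the listed genes lower every value of a library. The deposited mean column of each fraction was not used.

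Of 25965 rows, 58 symbols were duplicated, and the row with the highest mean was kept. Depth was taken as the number of reads at which low values (0.5 to 8.5 reads) come out whole within 0.02 reads, given merged exon lengths from the reference annotation (87.4% of genes). Per library 59.1% to 65.5% did, so read numbers are estimates, and limits of 3 reads cover counting error only, as amplified reads are not independent molecules.

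Fractions were tested against each other in limma 3.58.1 (R 4.3.3, Python 3.11.15 for summaries), two-sided, with a trend of the spread, a pseudocount of 1, a mean FPKM above 1 in either fraction and an adjusted p threshold of 0.1. On the log2(FPKM + 1) scale changes of low genes are understated. P-values measure the spread between these samples, which may be technical. The fit and the depth estimate were tested on simulated data. With a noise SD of 1.22, the fit recovered 3 of 200 genes set to differ by 2 log2 units, with 0 false calls. With a noise SD of 0.3 it recovered 200 of 200, with 18 false calls. At the larger noise, most differences of 2 log2 units thus went uncalled. Deviations from group means correlated at 0.0634, 0.0991 and 0.116 between libraries of the same number and at -0.0886 to 0.0208 between others. One lysate gives both an NP and a P pool, so libraries of one number were taken as a pair, although no source says so in words, and a replicate block was an alternative.

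The members and gene lists were chosen with earlier results of these data known. Named are the 8 members, pathway genes past the threshold, the 3 with the highest mean in each pathway list, those at 0 throughout, and the 3 genes nearest to the member with the highest mean. The Argonautes, *Lin28b*, *Prmt5*, *Tdrd6*, *Piwil1*, *Piwil4*, *Mov10* and *Trmt2a*, which overlaps *Dgcr8*, fall outside this rule and were named after their values were seen. The granulosa, theca and stroma markers not at 0 throughout were also named outside it. Alternatives were other pseudocounts, filters, scalings and thresholds, no trend, the block and each library left out.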

Additional observations from a re-analysis of the deposited data

How the results depend on the processing

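Over 22 alternatives, 109 of 132 log2 ratios of the 6 genes above 0 in both fractions kept direction and side of the threshold, 2 newly passed it (*Tarbp2*, with the replicate block and with a mean above 5 FPKM) and 21 reversed. The reversed ratios were *Dgcr8* at -0.056 with a pseudocount of 0.1, *Piwil2* at 0.43 under quantile normalization, and *Tdrd1* at 0.93 (median-of-ratios), 0.92 (quantile) and 0.86 (common FPKM sum). With a library left out, *Drosha* ranged from -2.47 to -0.031, *Dgcr8* from -0.42 to 1.51, *Dicer1* from -0.0022 to 0.82, *Piwil2* from -1.79 to 0.75 and *Tdrd1* from -0.76 to 0.44. Signs reversed for *Dgcr8* without NP replicate 3 (-0.091) or P replicate 2, *Dicer1* without NP replicate 3, *Piwil2* without NP replicate 1 and *Tdrd1* without NP replicate 1 (0.13), NP replicate 2, P replicate 1 (0.13) or P replicate 3 (0.010), with the same values when the filter of all 6 libraries was kept, an alternative chosen after seeing the data. The cause was not tested. *Prkra* and *Mov10l1*, at 0 in every P library, are left out of these counts, since their ratios are set by the pseudocount or scaling, and the 0.095 that quantile normalization gave for *Mov10l1* carries no direction.

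The count of members past the threshold, 0, became 1 with a mean above 5 FPKM and 1 with the replicate block, which changed no other call of a member. It stayed at 0 with any library left out. The 2 other pathway genes became 1 with a pseudocount of 0.1, 1 with one of 5, 1 at an adjusted p of 0.05, and 0 with no filter, no trend or any of the 3 rescalings, and ranged from 0 to 3 with a library left out (0 throughout with the filter of all 6 kept). Over all genes, 192 passed. This became 69 with a pseudocount of 0.1, 0 with no filter (limma, 1759 at an unadjusted p under 0.05), 15 with no trend, 3 by median-of-ratios, 4 by quantile, 7 by common sum, 65 at 0.05 and 668 with the replicate block. It ranged from 1 to 331 with a library left out. With the filter of all 6 kept it was 55 without P replicate 3 and 0 without any other. The median of all genes moved to -0.37 by median-of-ratios, to 0.0027 by quantile and to -0.43 by common-sum scaling. The depth of the P libraries, lowest in AF P replicate 1, limits what can be said of *Prkra* and *Mov10l1*. Both genes were also at 0 in NP replicate 3.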
